A study of Mus musculus with 6 samples.

Results

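The genes of the proteasome were followed across 6 RNA-seq libraries of E0771, a mouse mammary carcinoma line. They were taken as the protein-coding rows of the deposited count table whose symbol runs from Psma to Psmg and continues with a digit, which gave 49 of 28063 genes. Of these, 5 are known to be induced by interferon (Psmb8, Psmb9, Psmb10, Psme1 and Psme2) and were set against the other 44. The study compared 3 populations of the line, with 2 libraries each: Vector, which carries a control vector, Malt1_WT, which expresses the wild-type protein, and Malt1_PD, which expresses a mutant named by letters that the labels leave unexplained. All 6 libraries came from cells that had met activated CD8 T cells, with 3 effectors per target for 12 h, and that were then washed, trypsinised, plated again and lysed after a further 6 h. Libraries from cells without T cells were not analysed here, so the values show levels after coculture and not an induction by it. The sources used here do not give the promoter of the constructs, the number of clones behind each population or the origin of the replicates. A p-value therefore measures the spread between libraries, which may be technical.

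The proteasome degrades proteins marked with ubiquitin and supplies most of the peptides that MHC class I molecules show to CD8 T cells. Its 20S core is a stack of alpha and beta rings whose constitutive subunits Psmb5, Psmb6 and Psmb7 carry the catalytic sites. In cells that sense interferon, Psmb8, Psmb9 and Psmb10 take these places in newly built cores, which are then called immunoproteasomes, and Psme1 and Psme2 form the 11S activator that caps them. The 19S cap holds a ring of ATPases (Psmc genes) that unfold substrates and non-ATPase subunits (Psmd genes) that bind and remove ubiquitin.

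Of the 49 genes, 48 passed the filter on low counts, among them all 5 interferon-inducible genes. The exception was Psmb11, the catalytic subunit of thymic epithelium, which had 3 counts in Vector replicate 2 and 0 in the other 5 libraries. Psma8, the alpha subunit of the testis, has no row in the table used here. The name rule also takes in Psmc3ip, a protein of meiotic recombination, and Psme2b, a copy related to Psme2 that shares exon positions with 9930111J21Rik1. Neither is counted as a subunit in the roles described here, although both stay among the 49.

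The libraries held 14045390 to 19962014 counts, and the 3 counts taken as a floor equalled 0.150 to 0.214 CPM (counts scaled to library size with TMM factors). Malt1 itself stood at 23.8 and 31.3 CPM in Vector, 67.2 and 82.1 in Malt1_WT, and 106 and 95.7 in Malt1_PD. T cells hold much immunoproteasome, and little T cell RNA was counted: the 12 of 17 listed T cell genes with a row summed to 1.57 to 2.52 CPM per library, most of it Lck, and Cd3d, Cd3g, Cd8a, Cd8b1 and Trac had 0 to 5 counts each. The sum was 2.42 to 2.52 CPM in Vector, 1.57 to 2.24 CPM in Malt1_WT and 2.32 to 2.34 CPM in Malt1_PD, and its part in the results was not tested. In these bulk libraries, fewer cells of a type and less RNA per cell cannot be told apart. Of the genes listed for carcinoma lines, Vim had 58651 to 82518 counts and Krt8 1742 to 2204, while Cdh1, Krt18 and Krt19 had at most 12.

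Replicates 1 and 2 of Vector, and those of Malt1_WT, differed in how counts followed gene length, which does not say which library of a pair is the odd one. Across all 14675 genes tested, the difference in log2(CPM + 0.5) between replicate 1 and replicate 2 had Spearman correlations with deposited gene length of -0.49 (Vector), -0.35 (Malt1_WT) and 0.02 (Malt1_PD). The proteasome genes are shorter than most, with a median of 2768 nt against 3738 nt over the genes tested. Of the 48 members tested, 45 were higher in Vector replicate 1 than in replicate 2, by a median of 0.27 on the log2 scale, where the median of all genes was 0.01. In Malt1_WT, 43 of 48 were higher in replicate 1, by a median of 0.17. In Malt1_PD, 22 of 48 were higher in replicate 1, and the median was -0.01. Within the 48 members the correlation with length was -0.37 in Vector, -0.45 in Malt1_WT and -0.05 in Malt1_PD. The longest member, Psme4 with 8382 nt, was the furthest below 0 in Vector, at -0.31, and Psme2b, with 837 nt, was the highest, at 0.54. The next longest were Psmd1 (7265 nt) at -0.07, Psmd9 (7248 nt) at 0.37 and Psmd5 (7230 nt) at 0.14. The part of length in these differences was not tested. Vector replicate 1 held the highest value of 37 members, while Malt1_WT replicate 2 held the lowest of 18 and Vector replicate 2 the lowest of 17. The gap between the 2 Vector libraries was larger than the difference between the Malt1_WT and Vector means for 43 of 48 members, and larger than that between Malt1_PD and Vector for 44.

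**Figure D1:**
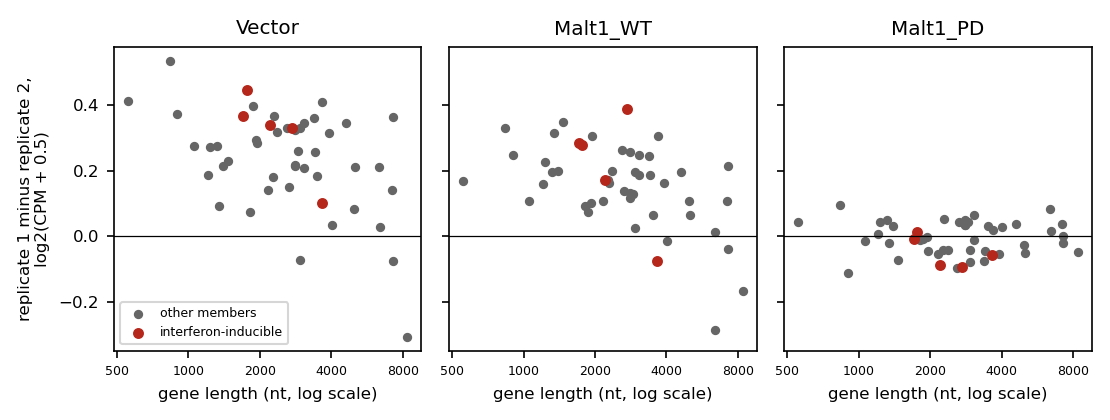
Difference in log2(CPM + 0.5) between replicate 1 and replicate 2 (y axis) against deposited gene length in nt (x axis, log scale) for the 48 members tested, in a panel for each group. Each point is a gene, with the 5 interferon-inducible genes in red. In Vector 45 of 48 points lie above 0 and in Malt1_WT 43 of 48, whereas 22 of 48 do in Malt1_PD.

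The interferon-inducible genes sit in pairs on the genome (GRCm38, coordinates from GENCODE M21). Psmb8 (ENSMUSG00000024338.14, chr17:34197721-34201454, plus strand) and Psmb9 (ENSMUSG00000096727.2, chr17:34181987-34187764, minus strand) lie 9956 bases apart in the MHC. Psme1 (ENSMUSG00000022216.17, chr14:55578123-55581529, plus strand) and Psme2 (ENSMUSG00000079197.10, chr14:55587441-55591113, minus strand) are separated by 5911 bases. Psmb10 (ENSMUSG00000031897.9, chr8:105935735-105938444, minus strand) stands alone. Exons of Psmb9 overlap those of Tap1 on the opposite strand, exons of Psmb8 overlap the antisense gene Gm20496, and exons of Psme1 overlap Emc9. The sources used here do not give the strand setting of the counting. Reads of such partners therefore cannot be told apart with certainty, and 15 of the 49 genes share exon positions with another gene in this way.

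Motifs of 4 kinds were searched on both strands of the RefSeq promoter windows (GRCm38.p6, 300 bases from 250 before to 50 after the start), in which 42 of the 49 genes were found, including the 5 interferon-inducible ones. The interferon-stimulated response element, spelled GAAA, any 2 bases and GAAA, was present for 5 of 42 members, 11.9%, against 3.99% of all genes with a window, and Psme1 was the only interferon-inducible member with it. The gamma-activated site, spelled TTCNNNGAA, was present for 3 of 42, 7.14% against 9.55%, with Psmb8 as the only interferon-inducible member. The core of the antioxidant response element, spelled TGACNNNGC, which NRF1 and NRF2 bind, was present for 6 of 42, 14.3% against 14%, and for none of the 5. CCAAT was present for 15 of 42, 35.7% against 41.1%. A match of these letters is a description and not a bound site. The stretches shown hold the matches of Psme1 and Psmb8 among the interferon-inducible genes, and of Psmb5 and Psmb6, whose places Psmb8 and Psmb9 take, 5′ to 3′ on the gene's own strand, with the match in capitals (for Psme1 it reads on the opposite strand):
Psme1, chr14:55578494-55578521, plus strand: gagctgtgcTTTCGCTTTCccttcccgc
Psmb8, chr17:34198089-34198115, plus strand: cctccgctgTTCCCAGAAgatgccccc
Psmb5, chr14:54618025-54618051, minus strand: gtgaagttgTGACGTCGCggcgttgcc
Psmb6, chr11:70525339-70525365, plus strand: taaagagagTGACGGAGCgctttacga
The stretches of Psme1 and Psmb8 overlap annotated exons, and those of Psmb5 and Psmb6 do not.

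Most subunit genes were among the more abundant transcripts of these cells. To compare genes, CPM were divided by the deposited gene length in kb (RPKM) and averaged over the 6 libraries. By this measure 32 of the 48 members stood above the 90th percentile of the genes tested and 45 above the 50th. In the constitutive core the medians of alpha and beta genes were close, while single genes differed. The 7 alpha genes had a median of 90.8 RPKM, from 54.3 (Psma4) to 226 (Psma6). The 7 constitutive beta genes had a median of 88.3 RPKM, from 48.9 (Psmb7) to 147 (Psmb4). In the cap, the 6 ATPase genes had a median of 101 RPKM, from 44.9 (Psmc2) to 148 (Psmc5). The 11 non-ATPase genes had a median of 68.1 RPKM, from 27.6 (Psmd11) to 173 (Psmd2, the large scaffold of the cap's base). Genes of assembly factors were lower. The 19S chaperones Psmd5, Psmd9 and Psmd10 had 5.63 to 33.1 RPKM, and the 20S chaperones Psmg1 to Psmg4 had 4.76 to 31.6 RPKM. The deposited length of a gene spans all of its annotated exons, which lowers the RPKM of genes with long or many annotated transcripts.

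The inducible catalytic genes stood below their constitutive counterparts in every library. Averaged over the 6 libraries, Psmb8 stood at 24.6 RPKM against 115 for Psmb5, whose chymotrypsin-like site it replaces. Psmb9 stood at 2.66 RPKM against 95.02 for Psmb6, and Psmb10 at 21.7 RPKM against 48.9 for Psmb7. Psmb9 ranked at percentile 33.8 of the genes tested, Psmb10 at 81.3 and Psmb8 at 83.5. The 11S genes were higher, with 44.2 RPKM for Psme1 and 69.9 RPKM for Psme2. Among the genes of other activators, Psme3, which forms a nuclear ring related to 11S, had 95.6 RPKM, Psme4, the large activator PA200, had 32.9 RPKM and Psmf1, the inhibitor PI31, had 6.76 RPKM.

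Per library, the ratio of Psmb8 to Psmb5 RPKM was 0.208 and 0.213 in Vector, 0.222 and 0.201 in Malt1_WT, and 0.218 and 0.215 in Malt1_PD. The groups overlapped. Psmb9 to Psmb6 gave 0.0261 and 0.0319 in Vector, 0.0256 and 0.0285 in Malt1_WT, and 0.0277 and 0.0287 in Malt1_PD, again with overlap. Psmb10 to Psmb7 gave 0.395 and 0.365 in Vector, 0.491 and 0.458 in Malt1_WT, and 0.487 and 0.474 in Malt1_PD. Here both Vector libraries lay below the other 4, with group means of 0.380 ± 0.0216 (SD, n = 2), 0.475 ± 0.0237 and 0.480 ± 0.0086. With 2 libraries a group no exact test of a ratio can pass 0.05, and none was made. How often ratios of other gene pairs stand apart in this way was not counted. The height of a ratio depends on the length used. With the length of the principal transcript in place of the deposited length, a choice made after seeing the data, Psmb8 to Psmb5 came to 0.338 to 0.373, Psmb9 to Psmb6 to 0.0296 to 0.0368, and Psmb10 to Psmb7 to 0.161 to 0.217. The order of the libraries is the same under either length, since length is shared by all libraries.

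**Figure D2:**
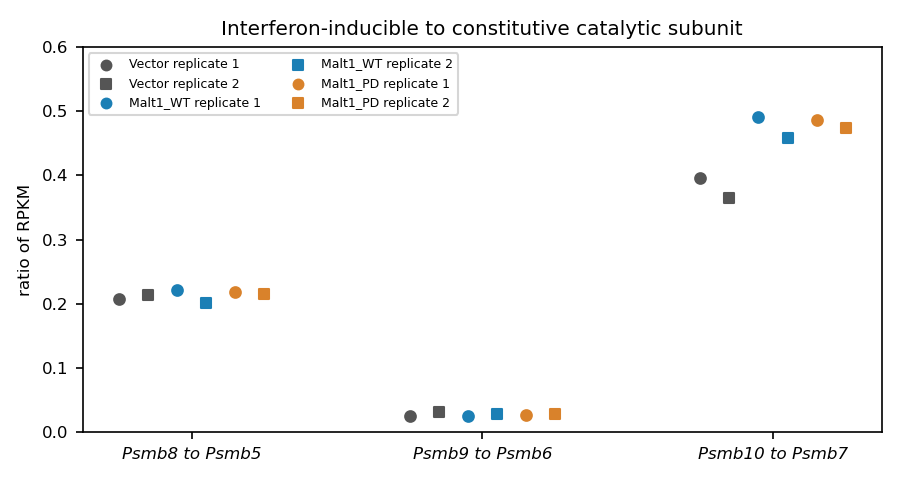
Ratio of RPKM of an interferon-inducible catalytic subunit gene to that of its constitutive counterpart (y axis) for the 3 pairs (x axis), with a point for each of the 6 libraries. For Psmb10 to Psmb7 the Vector points, at 0.395 and 0.365, lie below the other 4, which run from 0.458 to 0.491. The points of the other pairs overlap between groups.

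Across libraries the levels moved little: in all 48 members the highest library was under 1.5 times the lowest. Psmb8 had 75.3 and 59.7 CPM in Vector, 77.4 and 59.1 in Malt1_WT, and 64.0 and 68.3 in Malt1_PD. Its 2 highest values were the first replicates of Vector and Malt1_WT. Psmb9 had 10.98 and 10.2 CPM in Vector, 8.83 and 9.32 in Malt1_WT, and 9.30 and 9.69 in Malt1_PD. Both Vector libraries lay above the other 4. Psmb10 had 38.0 and 29.4 CPM in Vector, 41.8 and 34.2 in Malt1_WT, and 39.2 and 39.4 in Malt1_PD. Its lowest value was Vector replicate 2, and Vector and Malt1_WT overlapped.

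Of the 11S pair, Psme1 had 117.5 and 92.7 CPM in Vector, 102 and 90.5 in Malt1_WT, and 88.8 and 94.4 in Malt1_PD. Psme2 had 151.5 and 111 CPM in Vector, 138 and 114 in Malt1_WT, and 113 and 112 in Malt1_PD. For both, Vector replicate 1 was the highest library and replicate 2 stood within or below the Malt1_PD range. Summed over the 5 genes, the level was 393 and 303 CPM in Vector, 368 and 307 in Malt1_WT, and 314 and 324 in Malt1_PD. This was 3.80% to 4.28% of the CPM of all members, and the groups overlapped.

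The constitutive catalytic genes showed the same high first Vector library. Psmb5 had 119 and 91.9 CPM in Vector, 115 and 96.5 in Malt1_WT, and 96.3 and 104 in Malt1_PD. Psmb6 had 215 and 163 CPM in Vector, 176 and 167.5 in Malt1_WT, and 172 and 173 in Malt1_PD. Psmb7 had 193 and 161 CPM in Vector, 171 and 149.9 in Malt1_WT, and 161.5 and 167 in Malt1_PD. For all 3 genes Vector replicate 1 was the highest library. The activators outside 11S differed from this pattern. Psme3 had 267 and 281 CPM in Vector, 289.9 and 285 in Malt1_WT, and 280.4 and 288 in Malt1_PD. Psme4 had 234 and 289.9 CPM in Vector, 258 and 289.5 in Malt1_WT, and 287 and 297 in Malt1_PD. Vector replicate 1 held the lowest value of both. Psmf1 had 47.8 and 46.8 CPM in Vector, 36.9 and 45.03 in Malt1_WT, and 42.6 and 42.1 in Malt1_PD, with both Vector libraries above the rest.

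**Figure D3:**
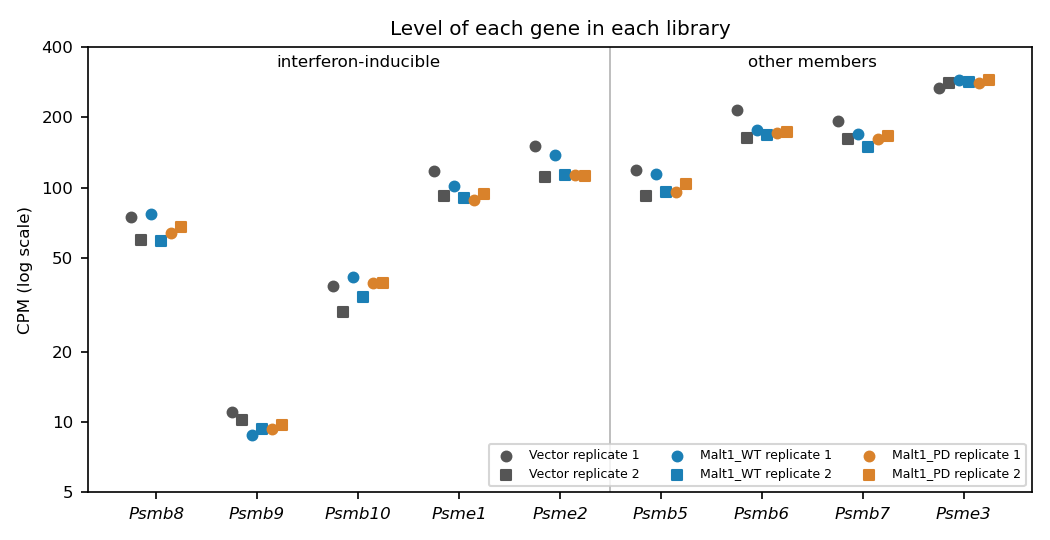
Level of the 5 interferon-inducible genes and of Psmb5, Psmb6, Psmb7 and Psme3 (x axis) in CPM (y axis, log scale), with a point for each library. Colour gives the group, and circles and squares give replicates 1 and 2. Psmb9 is the lowest, at 8.83 to 10.98 CPM, and for most genes the points of the groups overlap.

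The comparison of Malt1_WT with Vector asks how wild-type Malt1 bears on these transcripts after T cell contact. No member passed the test in edgeR (quasi-likelihood, adjusted p under 0.05 over 14675 genes): 0 of 48 were called higher and 0 lower, where 0.00681% of all genes tested were called higher and 0% lower. Below an unadjusted p of 0.05 there were 0 members in either direction, against 3.3% of all genes higher and 3.8% lower, and DESeq2 called 0. Of the 48, 39 had a log2 fold change below 0, 81.2% against 50.3% of all genes, and their median was -0.06 where that of all genes was -0.00. All 48 of the 95% intervals lay within a 1.5-fold change in either direction, between -0.55 and 0.57 on the log2 scale. The fit takes the same spread for all 3 groups, although the Vector libraries differed more from each other. Over all genes, the chi-square per degree of freedom between replicates was 24.4 in Vector, 8.11 in Malt1_WT and 7.39 in Malt1_PD. Intervals against Vector may therefore be too narrow, and those of Malt1_WT against Malt1_PD too wide. With each library's length trend removed, the median of the 48 was -0.04, with 34 below 0. The direction of the median rests on single libraries. It was 0.07 without Vector replicate 1, with 12 of 48 below 0, and 0.02 without Malt1_WT replicate 2, with 19 below 0. It was -0.18 without Vector replicate 2, with 45 below 0, and -0.14 without Malt1_WT replicate 1, with 42 below 0.

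By role, all 7 alpha genes, all 7 constitutive beta genes and all 11 non-ATPase genes had values below 0, with medians of -0.11, -0.08 and -0.06. The 6 ATPase genes had a median of -0.03, with 2 above 0. The 5 interferon-inducible genes had a median of -0.06, as did the other 43, and none passed the test. The median of the 5 was 0.18 without Vector replicate 1, 0.08 without Malt1_WT replicate 2, -0.26 without Vector replicate 2 and -0.19 without Malt1_WT replicate 1. Psmb10 was the highest of all 48 at 0.17 ± 0.15 (log2 fold change ± SE, edgeR adjusted p = 0.870), and Psmb8 was at 0.01 ± 0.15. Psmb9 was at -0.22 ± 0.14 (edgeR adjusted p = 0.807), Psme1 at -0.13 ± 0.12 and Psme2 at -0.06 ± 0.15. Of the constitutive counterparts, Psmb5 was at 0.00 ± 0.14, Psmb6 at -0.14 ± 0.12 and Psmb7 at -0.14 ± 0.11.

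After Psmb10, the highest values were those of the chaperones Psmg4 (0.14 ± 0.17) and Psmg3 (0.12 ± 0.14) and of the ATPase Psmc4 (0.07 ± 0.09). The lowest were Psma4, a subunit of the alpha ring, at -0.23 ± 0.12, Psmd8, the cap subunit also called Rpn12, at -0.22 ± 0.10, Psmb9, and Psmf1 at -0.20 ± 0.11. Psmd8 had the smallest p of the 48, 0.0556, with an edgeR adjusted p of 0.711. The libraries of the groups did not overlap for 1 member that was higher in Malt1_WT, Psme3, against 15.5% of all genes. They did not overlap for 6 members that were lower (Psmd2, Psmc6, Psmc3ip, Psmf1, Psmb9 and Psmd8), against 17.1% of all genes. Both shares of the 48 are below those of all genes.

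The comparison of Malt1_PD with Vector uses the same Vector libraries, so the results of both comparisons are tied. Again edgeR called 0 of 48 higher and 0 lower (0.00681% and 0% of all genes), and DESeq2 called 0. At an unadjusted p under 0.05, 0 members were higher and 1, Psmd8, was lower, against 3.73% and 4.88% of all genes. Log2 fold changes were below 0 for 42 of 48 members, 87.5% against 50.3%, with a median of -0.08 against -0.00. With the length trend removed the median was -0.06, with 38 of 48 below 0. Without Vector replicate 1 the median was 0.03, with 15 of 48 below 0. Without Vector replicate 2 it was -0.19, with 43 below 0. All 48 intervals lay within a 2-fold change and 45 within a 1.5-fold change. As before, all alpha, constitutive beta and non-ATPase genes were below 0, with medians of -0.14, -0.11 and -0.08.

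The interferon-inducible genes had a median of -0.16, with 1 of 5 above 0, and the other 43 a median of -0.08. Psmb10 was again the highest of the 48 at 0.22 ± 0.15 (edgeR adjusted p = 0.721), and its Malt1_PD libraries lay above both Vector libraries, the only member of which this was true, against 18.4% of all genes. Its value was 0.05 without Vector replicate 2 and 0.42 without Vector replicate 1. Psmb8 was at -0.03 ± 0.15, Psmb9 at -0.16 ± 0.14, Psme1 at -0.20 ± 0.12 and Psme2 at -0.22 ± 0.15 (edgeR adjusted p = 0.742). The median of the 5 turned to 0.02 without Vector replicate 1. Among the other genes, Psmg4 was at 0.22 ± 0.17, Psme4 at 0.15 ± 0.11, Psme3 at 0.05 ± 0.07, Psmb5 at -0.07 ± 0.14, Psmb7 at -0.11 ± 0.11, Psmb6 at -0.14 ± 0.12, Psmf1 at -0.16 ± 0.11 and Psma4 at -0.20 ± 0.12. The members whose libraries lay wholly below Vector were Psmd3, Psmd2, Psmb9, Psmb2, Psmf1, Psma4 and Psmd8, 7 of 48 against 19.7% of all genes.

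Psmd8 (ENSMUSG00000030591.17, chr7:29174188-29180701, minus strand) had the lowest value of all members. Its level was 311.5 and 269.5 CPM in Vector, 265 and 232.5 in Malt1_WT, and 222 and 224 in Malt1_PD. Both Vector libraries were above the 4 others, and both Malt1_PD libraries were below the rest. Of all genes, 17.1% had Malt1_WT libraries wholly below Vector and 19.7% had Malt1_PD libraries wholly below Vector. For 16.1% the Malt1_WT libraries lay wholly above Malt1_PD. The share of genes for which all of this holds was not counted in CPM. The log2 fold change of Malt1_PD against Vector was -0.38 ± 0.10 (95% interval -0.61 to -0.15), 23.1% lower. The edgeR adjusted p of 0.376 (unadjusted 0.00546) does not pass. It passed in 4 of 14 alternative settings. Among them were no filter on low counts (edgeR adjusted p = 0.0253) and a replicate block with the length trend removed (0.0210). The others were without Vector replicate 2, and without the first replicates of both Vector and Malt1_WT. Those fits leave Vector with 1 library and take the spread from groups with 2 libraries. Calls over all genes rose there too, so their p-values are not given. The log2 fold change of Psmd8 ran from -0.47 to -0.27 over the 14. Against Vector, Malt1_WT was at -0.12 to -0.32 over the same settings. It passed in 1 of 14, the setting without the first replicates of both Vector and Malt1_WT.

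**Figure D4:**
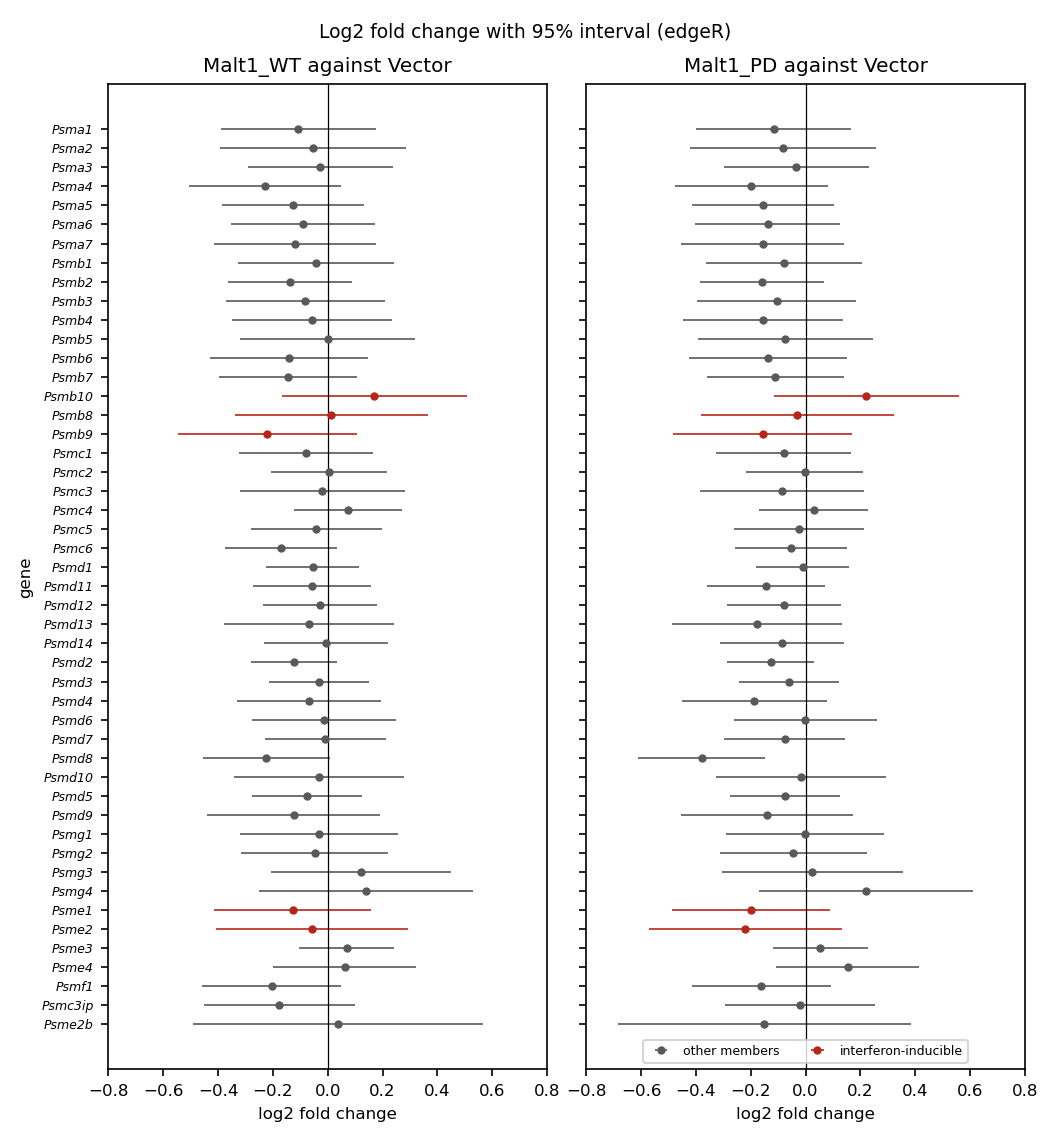
Log2 fold change (x axis) of the 48 members tested (y axis), with 95% intervals from edgeR, for Malt1_WT and Malt1_PD against the same Vector libraries. The 5 interferon-inducible genes are in red. No gene passed at an adjusted p under 0.05, and the interval of Psmd8 in Malt1_PD, -0.61 to -0.15, is the only interval in the plot that leaves out 0.

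To set aside what moves all members of a library together, each log2 level was also taken relative to the median of the 48 members in the same library, a view chosen after the values were seen. On this scale Psmd8 stood at 0.66 and 0.71 in Vector, 0.58 and 0.50 in Malt1_WT, and 0.38 and 0.40 in Malt1_PD. The 3 groups did not overlap. Psmb10 stood at -2.36 and -2.46 in Vector, -2.07 and -2.25 in Malt1_WT, and -2.11 and -2.09 in Malt1_PD. Both Vector libraries were the lowest, by 0.25 and 0.31 on average. Psme2 stood at -0.38 and -0.56 in Vector, -0.35 and -0.52 in Malt1_WT, and -0.59 and -0.60 in Malt1_PD, so both Malt1_PD libraries were the lowest. Psmb8, at -1.38 and -1.45 in Vector, -1.19 and -1.47 in Malt1_WT and -1.41 and -1.31 in Malt1_PD, and Psmb9 overlapped between groups. Of the 48 members, 8 stood higher and 4 lower in both Malt1_WT libraries than in both Vector libraries on this scale, against 19.9% and 8.12% of all genes taken relative to the same medians. In Malt1_PD 9 stood higher and 9 lower than Vector, against 24% and 9.82% of all genes. Between Malt1_WT and Malt1_PD, 10 stood higher in Malt1_WT and 3 lower, against 15.1% and 14.6%. All 3 groups were apart from each other for Psmc4, Psmd8, Psmg3 and Psmg4, 4 of 48 against 6.94% of all genes. Psmd8 and Psmb10 are thus not alone in standing apart. The scale sets the median of the members to 0 and not that of all genes, so the shares of all genes also hold their shift against the members. No test was made on this scale.

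**Figure D5:**
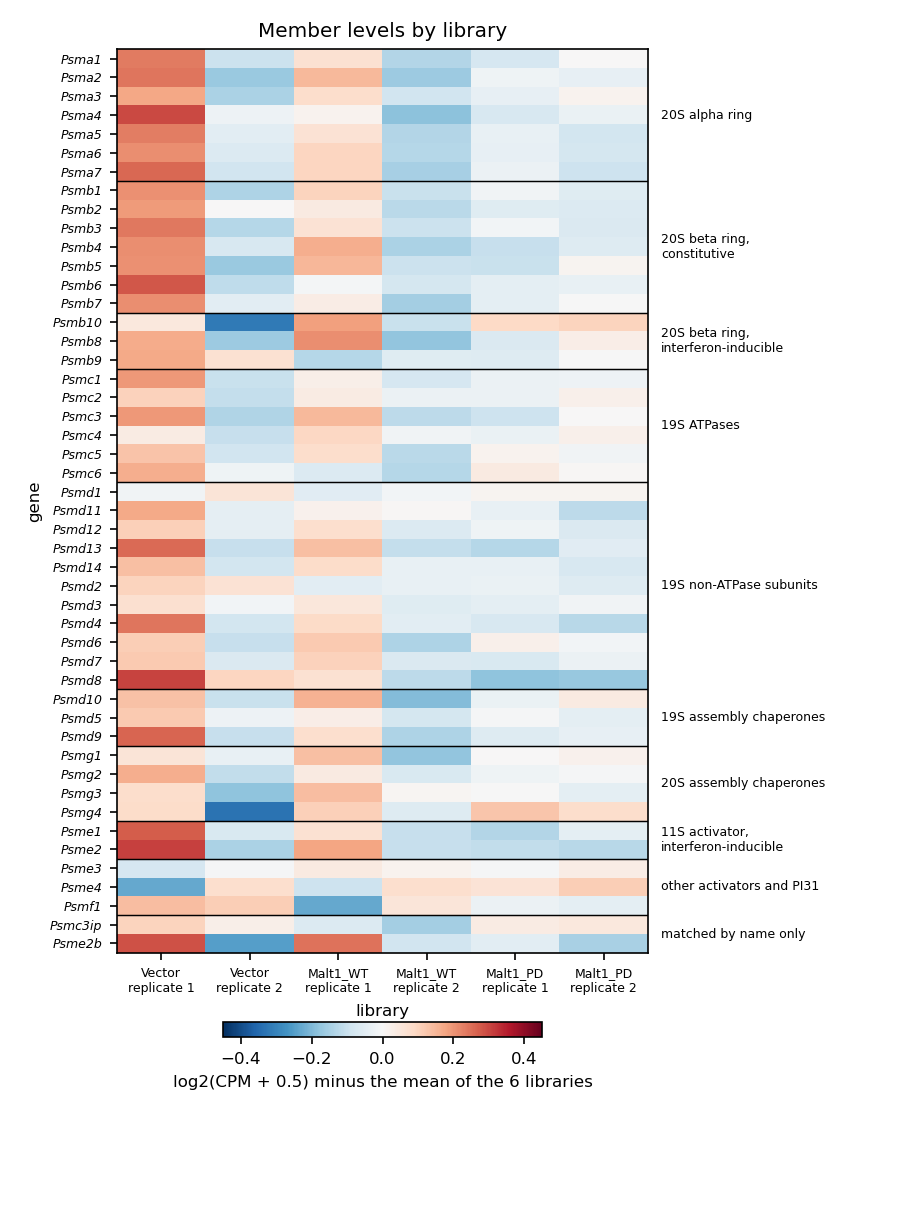
Log2(CPM + 0.5) of the 48 members tested (rows, grouped by role) in the 6 libraries (columns), as the difference from each gene's mean over the libraries (colour, log2 units). Vector replicate 1 is above the mean for most members, with the highest value in 37 of 48, while Psme4 has its lowest value there. The Malt1_PD columns are the closest to each other.

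The fold changes of Malt1_WT against Malt1_PD use no level of a Vector library, although the Vector libraries enter the spread, the filter and the scaling of the fit. With the Malt1_WT and Malt1_PD libraries fitted alone, 0 members were called and the median was 0.02. In the fit of all 6 libraries edgeR called 0 of 48 higher and 0 lower (0.00681% and 0% of all genes), 0 had an unadjusted p under 0.05 (0.838% and 1.08% of all genes), and DESeq2 called 0. The median was 0.02, with 30 members above 0 and 18 below. All 48 intervals lay within a 2-fold change and 47 within a 1.5-fold change. The highest values were Psme2b at 0.19 ± 0.23, Psme2 at 0.16 ± 0.15, Psmd8 at 0.15 ± 0.10 and Psmd4, a ubiquitin receptor of the cap, at 0.12 ± 0.11. The lowest were Psmc3ip at -0.15 ± 0.12, the ATPase Psmc6 at -0.12 ± 0.09, Psme4 at -0.09 ± 0.11 and Psmg4 at -0.08 ± 0.17. Of the interferon-inducible genes, Psme1 was at 0.07 ± 0.13, Psmb8 at 0.04 ± 0.15, Psmb10 at -0.05 ± 0.15 and Psmb9 at -0.06 ± 0.14. Libraries did not overlap for 6 members that were higher in Malt1_WT (Psme2, Psmd8, Psmd4, Psmg3, Psmd11 and Psmd14) and 3 that were lower (Psmd1, Psmc6 and Psmc3ip), against 16.1% and 16% of all genes. Without Malt1_WT replicate 1 the median was -0.06, with 38 of 48 below 0, and without Malt1_WT replicate 2 it was 0.10, with 7 below 0.

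Genes that work with the proteasome were read from lists, and edgeR called none of their members in any comparison. In the comparisons with Vector, 2 class I genes (higher) were below an unadjusted p of 0.05 in each, as were 1 interferon signalling gene that was higher and 3 that were lower in Malt1_PD. These counts are out of 12 class I and 15 interferon signalling genes, where all genes gave 3.3% higher in Malt1_WT, and 3.73% higher and 4.88% lower in Malt1_PD. Of 22 genes associated with the proteasome outside the name rule, such as the assembly factor Pomp and the deubiquitinases Usp14 and Uchl5, 19 were tested, with medians of 0.02 (Malt1_WT against Vector), 0.00 (Malt1_PD against Vector) and 0.01 (Malt1_WT against Malt1_PD). In Malt1_PD against Vector, 10 of these 19 were above 0 and 9 below. Ube3c, with the smallest p of the list there, was at 0.17 ± 0.08 (edgeR adjusted p = 0.607). Nfe2l1, which encodes the transcription factor NRF1 of proteasome genes, was at -0.13 ± 0.08 (edgeR adjusted p = 0.715). The 9 ubiquitin and p97 genes tested had medians of -0.06, -0.04 and 0.01. The 12 genes of MHC class I peptide loading had medians of -0.02, -0.08 and 0.04. In that list Erap1, a peptidase that trims peptides for class I, was at 0.22 ± 0.09 in Malt1_WT and 0.33 ± 0.09 in Malt1_PD against Vector (edgeR adjusted p = 0.675 and 0.377). Most of the list went the other way in Malt1_PD, with 9 of 12 genes below 0 and 3 above. There the libraries of 6 lay wholly below Vector and of 2 wholly above, against 19.7% and 18.4% of all genes. In Malt1_WT 6 genes were above 0 and 6 below. The 15 genes of interferon signalling had medians of -0.07, -0.10 and 0.03. In Malt1_WT 11 of the 15 were below 0 against Vector. The libraries of 6 lay wholly below Vector and of 2 wholly above, against 17.1% and 15.5% of all genes. In Malt1_PD 13 were below 0, with 7 wholly below Vector and 1 wholly above, against 19.7% and 18.4%. Between Malt1_WT and Malt1_PD, 6 lay wholly higher in Malt1_WT and 1 lower, against 16.1% and 16%. There 1 was higher at an unadjusted edgeR p under 0.05, against 0.838% of all genes.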

How the data were processed

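Whole-number counts per gene for 6 libraries were deposited by the authors, beside gene lengths and log2 RPKM columns. Per the labels' protocols, directional libraries of total RNA were read in pairs of 150 bases. The submitters' processing notes name Trim Galore 0.6.0, STAR 2.7.3a, featureCounts 1.6.3 and GRCm38.p6. The strand setting and annotation version were not given in the sources used here. The deposited log2 RPKM of the Malt1_PD libraries were recomputed from counts and lengths within 1e-06, and 4 columns of repeated names were not used.

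The test was edgeR 4.0.16 under R 4.3.3 (TMM, filterByExpr by group, glmQLFit and glmQLFTest, all 6 libraries, a mean per group, 3 residual degrees of freedom), with Benjamini-Hochberg adjustment over 14675 genes and calls at 0.05. SEs come from the quasi-likelihood F and take the same spread for all 3 groups. DESeq2 1.42.0, other scaling, no low-count filter, a fit of the 2 groups compared, a replicate block, removal of each library's length trend and leaving out libraries were alternatives. The fits were tried on simulated counts with the same dispersion in every library, no length trend and planted changes of at least 2-fold. The data differ in each of these, so that trial does not bear on the small changes of the members. Intervals and floors cover only what the counts and the spread between libraries show.

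Members and lists were chosen with earlier results of these data known. Genes named with values were the 5 interferon-inducible genes, Psmb5, Psmb6, Psmb7, Psme3, Psme4 and Psmf1, the 4 highest and 4 lowest log2 fold changes per comparison at a mean of at least 1 CPM, any gene called or below the filter, and in each pathway list the 3 with the smallest p, of which some are reported and 1 is not reported here. B cell markers (3 of 4 with a row) summed to 0.549 to 1.12 CPM per library and myeloid markers (6 of 6) to 7.37 to 11.03 CPM. The myeloid sum was 9.13 to 11.03 CPM in Vector, 7.9 to 9.225 in Malt1_WT and 7.37 to 8.35 in Malt1_PD. Its part in the results was not tested.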

Additional observations from a re-analysis of the deposited data

How the results depend on the processing

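The 2 libraries a group limit these results more than depth does. Where an alternative left a group with 1 library, the fit takes its spread from the other groups. The counts of called members stayed at 0 under DESeq2 size factors, the DESeq2 Wald test, the fit of the 2 groups compared, the replicate block and the removed length trend. For Malt1_PD against Vector, 1 member (Psmd8) was called lower with no low-count filter and 1 (Psmd8) with the replicate block and length trend removed. Over the settings that leave out libraries, members called lower ran from 0 to 2 for Malt1_WT against Vector (Psma4 and Psmb6 without Vector replicate 2) and from 0 to 6 for Malt1_PD against Vector (Psma4, Psmb6, Psmd4, Psmd8, Psme1 and Psme2 without Vector replicate 2). Members called higher in Malt1_PD ran from 0 to 3 (Psma2, Psma3 and Psmb10 without the first replicates of Vector and Malt1_WT, where Psmd2 and Psmd8 were called lower; Psme4 alone without Vector replicate 2). Calls over all genes moved too, from 1 higher and 0 lower for each comparison with Vector. Without the first replicates of Vector and Malt1_WT they came to 948 higher and 1132 lower for Malt1_PD (6.23% and 7.44% of all genes) and to 434 and 502 for Malt1_WT (2.85% and 3.3%). The shares of the 48 members called in Malt1_PD there, 3 higher and 2 lower, are near or below those of all genes. Without Vector replicate 2 they came to 648 and 280 for Malt1_PD (4.23% and 1.83%) and to 468 and 131 for Malt1_WT (3.05% and 0.854%). Without Vector replicate 2 the shares of members called lower lie above those of all genes in both comparisons, and the shares called higher lie below them. With the DESeq2 Wald test, calls over all genes came to 12 higher and 16 lower (Malt1_WT) and 19 and 23 (Malt1_PD). The cause was not tested.

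Leaving out libraries, the median for Malt1_WT against Vector ran from -0.18 to 0.070 over all members and from -0.26 to 0.18 over the interferon-inducible genes, and for Malt1_PD that of the inducible genes ran from -0.20 to 0.025. The same settings moved single members across 0, none of them called on both sides. For Malt1_WT against Vector the ranges were -0.004 to 0.26 (Psmg3), -0.004 to 0.36 (Psmb10), -0.084 to 0.23 (Psme4), -0.32 to 0.071 (Psmb6), -0.058 to 0.37 (Psmg4), -0.17 to 0.20 (Psmb5), -0.29 to 0.051 (Psme1), -0.26 to 0.18 (Psme2) and -0.19 to 0.20 (Psmb8). For Malt1_PD against Vector they were -0.23 to 0.026 (Psmb7), -0.32 to 0.079 (Psmb6), -0.24 to 0.13 (Psmb5), -0.42 to 0.025 (Psme2) and -0.18 to 0.15 (Psmb8). For Malt1_WT against Malt1_PD they were -0.13 to 0.056 (Psmb7), -0.20 to 0.0886 (Psmf1), -0.20 to 0.0888 (Psmb10), -0.043 to 0.0315 (Psmb6), -0.0047 to 0.034 (Psme3), -0.17 to 0.0065 (Psmg4), -0.0575 to 0.19 (Psmb5), -0.019 to 0.16 (Psme1) and -0.16 to 0.23 (Psmb8). Psmb5 in Malt1_WT against Vector also turned positive with DESeq2 size factors (0.0076), no low-count filter (0.0063), the DESeq2 Wald test (0.008), the 2 groups compared (0.0004) and the replicate block (0.0038). Psmb8 in Malt1_PD against Vector turned to 0.012 with the length trend removed and to 0.020 with the block as well.

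The differences between replicates 1 and 2 were partly shared by Vector and Malt1_WT, with a correlation of 0.37 across 14675 genes. Malt1_PD did not share them, at 0.0001 with Vector and 0.0074 with Malt1_WT. Replicates 1 and 2 therefore showed no difference in common across all 3 groups. Whether libraries of the same replicate number were prepared together is not given in the sources used here. With the replicate block alone 0 members were called, the medians were -0.05, -0.07 and 0.02 (Malt1_WT against Vector, Malt1_PD against Vector, Malt1_WT against Malt1_PD), and calls over all genes came to 4 higher and 2 lower, 3 and 6, and 1 and 0.

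With principal transcript length, Psmb8 to Psmb5 was 0.349, 0.359, 0.373, 0.338, 0.367 and 0.362, Psmb9 to Psmb6 was 0.0301, 0.0368, 0.0296, 0.0329, 0.0319 and 0.0331, and Psmb10 to Psmb7 was 0.174, 0.161, 0.217, 0.202, 0.2145 and 0.209, in the order Vector, Malt1_WT, Malt1_PD with replicate 1 before 2. This change follows from the lengths alone. The deposited log2 RPKM of Malt1_PD follow from the same counts and lengths. The 6 ratios they give therefore repeat those of the counts and are no separate check.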
